A study of Mus musculus with 4 samples.

Results

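The genes of classical DNA end joining were followed in whole mouse embryos of embryonic day 9.5 that were Cop1-null. The 7 genes, Lig4, Xrcc4, Xrcc5, Xrcc6, Prkdc, Nhej1 and Dclre1c, were chosen with the difference of Lig4 between the genotypes known, so their differences are given as a description, with no test. Every probe set that the array platform's annotation assigns to 1 of these genes alone was taken. This gave 9 of 45037 probe sets and 6 of 18193 genes. Lig4, Xrcc5 and Prkdc had 1 probe set each, Xrcc4, Xrcc6 and Nhej1 had 2 each, and Dclre1c, which encodes the nuclease Artemis, was listed with none and was not analysed here.

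The study compared 2 RNA pools on 4 Affymetrix arrays. The null pool held RNA of 6 Cop1-null embryos. The control pool held RNA of 6 embryos that were wild type or heterozygous (+/+ or +/-), although the array titles call them wild-type. Each pool was divided into 2 portions, and each portion went onto 1 array, so the arrays of a genotype share their RNA and the spread between them is technical. How the Cop1 allele was made, the strain and the sex of the embryos are not stated in the sources used here.

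Broken DNA ends are joined directly by the classical end-joining pathway. The Ku heterodimer, made of the products of Xrcc6 (Ku70) and Xrcc5 (Ku80), slides onto the ends and recruits the kinase DNA-PKcs, the product of Prkdc, and Artemis opens or trims the ends. DNA ligase IV, the product of Lig4, then seals them in a complex with XRCC4, which stabilises the ligase, and with XLF, the product of Nhej1. Mouse embryos without Lig4 or Xrcc4 are known to die late in gestation with extensive death of newly formed neurons, and lymphocytes need the pathway to assemble their antigen receptor genes.

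Several of these genes begin back to back with another gene. In RefSeq (build GRCm38.p6) Lig4 lies on chromosome 8 at 9970020 to 9977680, on the minus strand. Its start is separated by 36 bases from that of Abhd13, a gene for a predicted hydrolase that runs the other way from 9977717 to 9992155. Xrcc4 and Tmem167 start 58 bases apart on chromosome 13, and the starts of Xrcc6 and Desi1 in the RefSeq promoter table are 148 bases apart on chromosome 15. The listed span of Desi1 reaches closer, to 110 bases before that start of Xrcc6, and the listed span of Xrcc6 begins farther upstream, at 81987833, and encloses Desi1. Thus 3 of the 6 members with a RefSeq promoter window had a start of another protein-coding gene facing away within 1000 bases, against 8.48% of 17492 protein-coding genes. Prkdc has no window in that table, and its listed position begins 43 bases after the listed end of Mcm4. The stretches just before the 3 starts are shown because they lie at the facing starts of genes that are compared below. Those of Xrcc4 and Xrcc6 run up to the listed span of the partner, while that of Lig4 holds the 36 bases between the genes and the first 18 bases of Abhd13. Each reads 5′ to 3′ on the strand of the named gene and ends at the base before its start. Capitals mark a pair of overlapping matches to the NRF1 site (GCATGCGC, one on each strand) in the first and GC boxes (GGGCGG on either strand) in the others.
Lig4, chr8:9977681-9977734, minus strand: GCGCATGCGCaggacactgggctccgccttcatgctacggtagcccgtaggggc
Xrcc4, chr13:90089609-90089666, minus strand: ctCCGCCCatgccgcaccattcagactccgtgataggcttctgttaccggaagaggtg
Xrcc6, chr15:82016259-82016368, plus strand: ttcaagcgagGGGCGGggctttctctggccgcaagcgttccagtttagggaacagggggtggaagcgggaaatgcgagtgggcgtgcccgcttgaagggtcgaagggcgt

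The joined NRF1 matches, at bases -54 to -45 from the Lig4 start, also lie at bases 9 to 18 of Abhd13. Of 32851 RefSeq promoter windows, each of 250 bases before and 50 bases after a start, 2.71% hold these letters on either strand, and that of Xrcc5 is among them. The window of the other listed Lig4 start, at 9976262 to 9976561, does not contain them. The same windows were searched on both strands for the GC box, in 35.7% of windows, and for the CCAAT box (CCAAT), in 37.4%. The TATA box (TATAAA) was in 13.6% of windows, the core of the hypoxia response element (ACGTG) in 19.6%, an AP-1 site (TGANTCA) in 7.81% and an ETS site (CCGGAAGT) in 3.89%. The CRE (TGACGTCA) was in 1.79%, an E2F site (TTTGGCGC) in 0.514% and an ATF4 site (TGATGNAA) in 3.97%. Among the 7 member windows, 2 of which are of Lig4, the GC box was found in 5, and the CCAAT box in those of Xrcc5, Xrcc6 and Dclre1c. The core of the hypoxia response element was found in the windows of Xrcc5 and Dclre1c. The ETS site was found in the first Lig4 window, at bases -161 to -154, and in that of Dclre1c. The TATA box, AP-1, CRE, E2F and ATF4 letters were in none of these windows. The G and C content was 66.3% and 67.3% in the Lig4 windows, 65.7% in that of Xrcc4 and 64.3% in that of Xrcc6, but 48% in that of Xrcc5 and 50.7% in that of Nhej1, with a median of 52.7% over all windows. These matches describe the letters of the windows and say nothing of binding in these embryos.

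The tables and labels were checked first. The 4 arrays had near-equal medians, from 6.03 to 6.10 on the log2 scale. The medians of the poly-A control probe sets, used below for an alternative centring, were 7.40 and 7.63 on control arrays and 7.67 and 7.83 on null arrays. They thus differed between portions of 1 pool as well as between pools, and that centring carries this technical spread. Cop1, an E3 ubiquitin ligase gene, read 11.35 and 11.26 on control arrays against 9.67 and 9.77 on null arrays, a fall of 2.99-fold (limma, adjusted p = 0.000728). This rests on 1 probe set, which kept 33.4% of the control reading and stayed above the array medians in the null pool. Markers of the embryo's tissues fixed for this check had readings from 6.40 to 12.63 for heart (4 genes), 7.34 to 11.31 for neural tube (4 genes), 4.94 to 9.14 for somites (4 genes) and 10.18 to 14.39 for primitive erythroid cells (3 of 4 genes). Markers of trophoblast and decidua, tissues around the embryo, read 3.37 to 3.65 (2 of 4 genes measured). Those of lymphocytes, which use end joining for receptor assembly and are not yet formed at this stage, read 3.12 to 6.44 (3 of 4 genes). The table holds no detection calls, so a reading cannot be set against a background.

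Lig4 was far lower in the null pool. Its probe set read 7.62 and 7.70 on control arrays against 5.64 and 5.26 on null arrays (log2 expression). The groups lay 1.98 log2 units apart at their nearest arrays, whereas the control portions differed by 0.09 and the null portions by 0.38. Its mean was 7.66 ± 0.06 for the controls and 5.45 ± 0.27 for the nulls (SD, n = 2 portions). Lig4 thus differed by -2.21 log2 units (SE 0.14), which is 4.64-fold, and the null pool had 21.6% of the control reading. Each SE given here and below is the moderated one of limma. It draws on the spread of all probe sets and can be smaller or larger than the SDs of the portions imply. Of all probe sets 6 had a more negative difference, and of all genes 3. The null portions differed by as much as they did for Lig4 in 3.3% of all probe sets. These values rest on a single probe set, whose place within the Lig4 transcript is not stated in the sources used here. Its null readings lay below the array medians (6.03 to 6.10) and within the range of the lymphocyte markers (3.12 to 6.44). Whether a floor of the probe set limits the fold was not tested. In RNA of whole embryos, fewer cells that express a gene and less of its RNA per cell cannot be told apart.

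**Figure D1:**
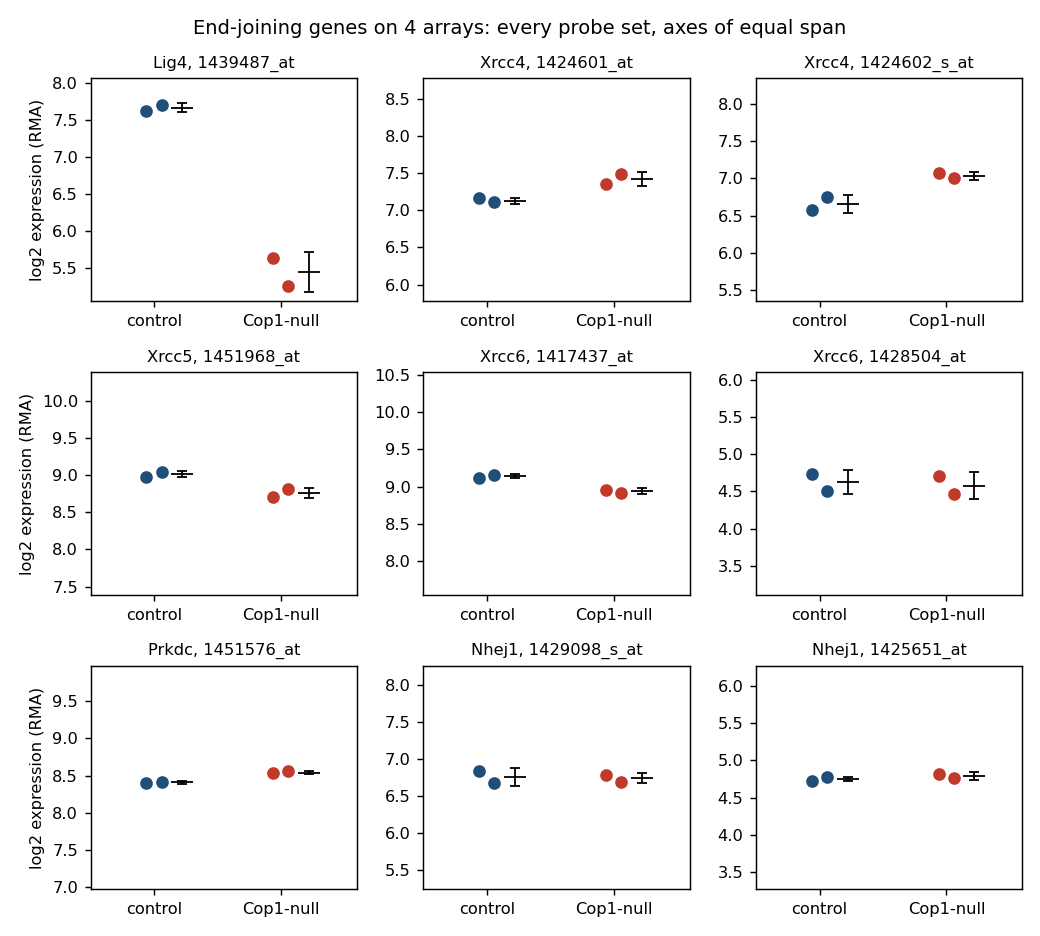
Log2 expression (RMA) of the 9 probe sets of the end-joining genes on the 2 control arrays (blue) and the 2 Cop1-null arrays (red). Bars give the mean ± SD over 2 portions, and all panels span the same number of log2 units. The null arrays of Lig4 lie near 5.45 and its control arrays near 7.66, while the groups of the other genes lie close together.

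XRCC4, the partner that holds ligase IV, had slightly higher transcript readings in the null pool. The brighter probe set of Xrcc4 read 7.16 and 7.11 on control arrays against 7.36 and 7.49 on null arrays, a difference of 0.29 (SE 0.08) or 1.22-fold. Its other probe set read 6.58 and 6.75 on control arrays against 7.07 and 7.0 on null arrays, a difference of 0.37 (SE 0.08) or 1.29-fold. In both, each null array was above each control array, but with the arrays centred on the poly-A control probe sets the difference of the brighter one was 0.05. Nhej1, the gene of XLF, showed overlapping arrays. Its brighter probe set read 6.84 and 6.68 in controls and 6.78 and 6.69 in nulls (difference -0.02, SE 0.09), and the other differed by 0.04 (SE 0.07). Within the ligation complex, Lig4 thus read lower, Xrcc4 slightly higher except under that centring, and Nhej1 with overlap between the groups.

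Both Ku genes were slightly lower in the null pool. Xrcc5, the gene of Ku80, read 8.98 and 9.04 on control arrays against 8.71 and 8.81 on null arrays, a difference of -0.25 (SE 0.07). Xrcc6, the gene of Ku70, read 9.12 and 9.16 on control arrays against 8.96 and 8.91 on null arrays, a difference of -0.21 (SE 0.06). In these probe sets the null arrays lay below the control arrays, by 1.19-fold and 1.15-fold. The second probe set of Xrcc6 read 4.74 and 4.51 against 4.71 and 4.46, with overlapping arrays and a difference of -0.04. Prkdc, the gene of the kinase that binds Ku at the ends, read 8.40 and 8.42 on control arrays against 8.53 and 8.56 on null arrays, a difference of 0.13 (SE 0.06) that turned to -0.10 with the poly-A centring.

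Of the 9 probe sets, the null arrays lay wholly below the control arrays in 3, wholly above in 3 and overlapped with them in 3. Over all probe sets 32.7% lay wholly below and 32.6% wholly above. A difference of at least 1.5-fold with arrays that did not overlap was found in 1 of the 9, that of Lig4, beside 7.06% of all probe sets below and 6.86% above, or 13.9% in either direction. As the genes were chosen on this contrast, nothing is read from that count. The differences of the 8 probe sets of the other members ran from -0.25 to 0.37. The median over the other 5 measured genes was -0.02, and the median of all genes was -0.02.

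**Figure D2:**
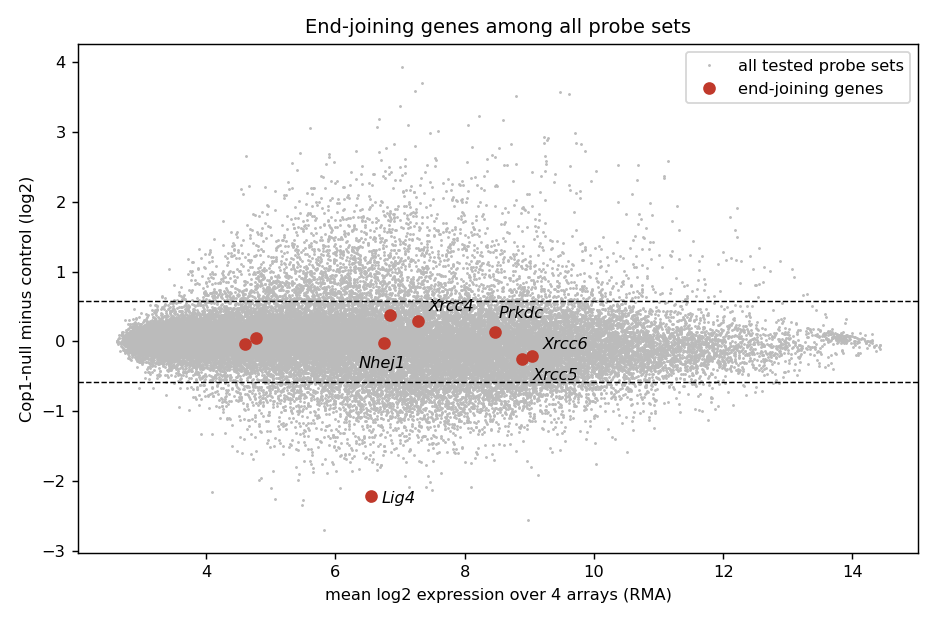
Difference between the Cop1-null and control means (log2) against the mean log2 expression over 4 arrays, for 45037 probe sets (grey) and the 9 of the end-joining genes (red), with the brightest probe set of each gene named. Dashed lines mark a 1.5-fold difference. Lig4 lies at -2.21, and the other 8 probe sets lie between -0.25 and 0.37.

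The genes around Lig4 were examined to see whether the low reading extended along the chromosome. They were tested in limma with all probe sets, each gene through its brightest probe set on average. A gene rose or fell by definition at an adjusted p under 0.05 and a fold of at least 1.5, which 8.06% of all genes did downward and 3.58% upward. Of the 5 protein-coding genes on each side, all 10 were measured, 0 fell and 1 rose. At an unadjusted p under 0.05 in limma 1 was lower and 2 were higher, where 27.5% of all genes were lower and 16.8% higher. The gene that rose was Irs2, an adaptor of the insulin receptor, which read 7.13 and 7.22 in controls and 7.82 and 7.92 in nulls (difference 0.70, adjusted p = 0.00331). It missed the fold limit when the arrays were centred on the poly-A control probe sets (0.46, adjusted p = 0.0427).

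Abhd13, whose start faces that of Lig4, was slightly lower on all of its 5 probe sets. The probe set with the highest mean read 8.29 and 8.21 on control arrays against 8.10 and 8.06 on null arrays (difference -0.17, adjusted p = 0.124). The 5 differences ran from -0.48 to -0.17, and 3 probe sets had an adjusted p under 0.05 in limma, while 4 had an unadjusted p under 0.05 and 0 reached 1.5-fold. Of all 45037 probe sets, 7933 were lower by adjusted p alone. In each of the 5 the null arrays lay below the control arrays, as they did in 32.7% of all probe sets. These 5 measure 1 gene in the same pools and are not independent. The genes on both sides of the 36 bases between their starts read lower, with differences of -2.21 for Lig4 and of -0.48 at the most for Abhd13. On the other side of Lig4, Fam155a read 5.94 and 5.95 against 5.80 and 5.56 (difference -0.26, adjusted p = 0.102). Arglu1, next beyond it, differed by -0.14 on its brighter probe set, but its other probe set rose by 1.14 (adjusted p = 0.00156). That probe set was singled out after its value was seen.

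**Figure D3:**
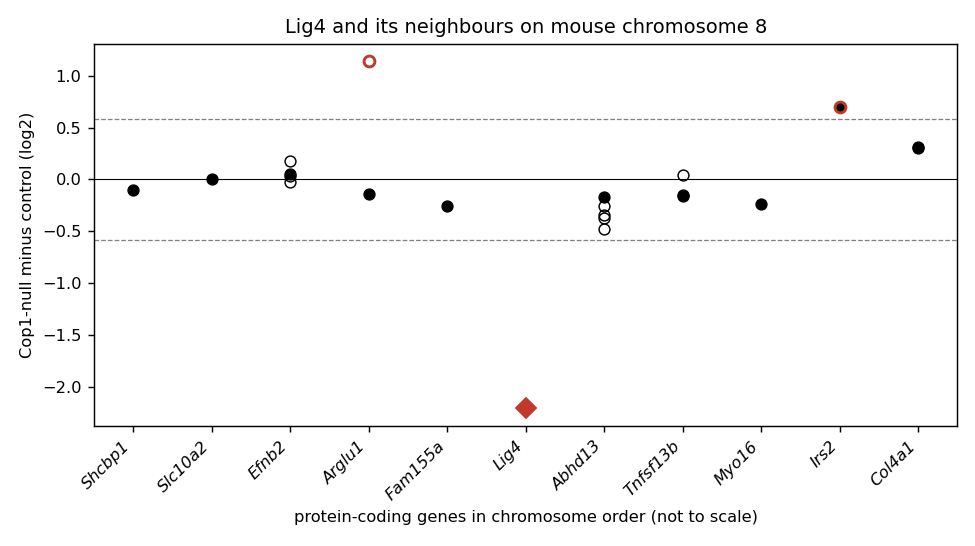
Difference between the Cop1-null and control means (log2) for Lig4 (diamond) and each probe set of the 5 protein-coding genes on either side, in chromosome order and not to scale. Filled circles are the probe sets with the highest mean, red outlines mark those past both limits, and dashed lines mark 1.5-fold. Lig4 lies at -2.21, while its neighbours lie between -0.48 and 1.14.

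The other members that start close to a neighbour did not move with it in every case. Xrcc4 differed by 0.29 and its partner Tmem167, which encodes a small membrane protein, by -0.35 (10.95 and 11.03 against 10.63 and 10.65, adjusted p = 0.017, limma). Of the other 6 probe sets of Tmem167, the difference ran from -1.18 to 0.10, and 2 fell (-1.18 and -0.61). Xrcc6 differed by -0.21 and Desi1, a gene for a predicted isopeptidase, by -0.55 (adjusted p = 0.00764), but the other 2 probe sets of Desi1 differed by -0.07 and 0.13. Prkdc differed by 0.13 and Mcm4, a subunit gene of the replicative helicase, by -0.19 (11.54 and 11.58 against 11.39 and 11.35, adjusted p = 0.0824). Of the 12 nearest genes around the members other than Lig4, all were measured, 0 rose and 1 fell, and at an unadjusted p under 0.05 in limma 0 were higher and 6 lower, beside 16.8% and 27.5% of all genes. The gene that fell was Tmem169 beside Xrcc5, which read 6.22 and 6.33 in controls and 5.26 and 5.52 in nulls (difference -0.88, adjusted p = 0.00478). With the arrays centred on their medians Desi1 and Suv39h2, the neighbour of Dclre1c, also passed (-0.61 and -0.59). Without null replicate 1 Desi1 differed by -0.63. Before that centring Suv39h2 differed by -0.52 (adjusted p = 0.00488, limma). Of its other 2 probe sets, 1 fell (-0.59, adjusted p = 0.00522, limma) and 1 differed by -0.55.

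The rest of the end-joining machinery was read from 3 lists of other genes. Accessory factors of the classical pathway trim, fill or protect the ends. Of 11 listed, 9 were measured, and 0 rose and 0 fell, with a median difference of -0.09 and a range from -0.42 to 0.46. At an unadjusted p under 0.05 in limma 3 were higher and 2 lower, beside 16.8% and 27.5% of all genes. The largest differences were those of Tdp2 and Tdp1, phosphodiesterases that remove topoisomerase remnants from DNA ends. Tdp2 read 10.37 and 10.36 in controls and 10.80 and 10.86 in nulls (difference 0.46, adjusted p = 0.00681), and Tdp1 read 9.26 and 9.28 against 8.82 and 8.89 (-0.42, adjusted p = 0.00956). Both missed the fold limit, and they differed in opposite directions. With the arrays centred on the poly-A control probe sets Tdp2 differed by 0.23 (adjusted p = 0.355). Paxx, a paralogue of XRCC4 and XLF, differed by 0.32 (adjusted p = 0.0597, limma), and the gap-filling polymerase genes Polm and Poll by 0.26 and -0.09. The remaining measured genes of the list were Aplf (-0.29), Aptx (-0.20), Dntt (-0.17) and Wrn (0.05).

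Alternative end joining works through short matches at the ends and uses other ligases. Of 8 listed genes 7 were measured, and 0 rose and 0 fell, with a median of 0.00. By p alone, adjusted or unadjusted in limma, 2 were higher and 2 lower. Of all genes, the adjusted p alone called 12% higher and 21.8% lower, and the unadjusted p 16.8% and 27.5%. Fen1, the flap nuclease gene, read 11.35 and 11.35 in controls and 10.82 and 10.89 in nulls (difference -0.50, adjusted p = 0.00563), and its second probe set fell by 0.89 (adjusted p = 0.00171). Polq, the polymerase that anneals the short matches, read 5.32 and 5.33 against 5.72 and 5.87 (difference 0.47, adjusted p = 0.0111), and by 0.23 with poly-A centring (adjusted p = 0.35). Of the other ligases, Lig1, which joins replication fragments, differed by 0.04, with 11.04 and 11.05 against 11.07 and 11.09.

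Lig3, the remaining ligase gene, gave discordant readings. Its brightest probe set read 8.82 and 8.76 in controls and 8.29 and 8.36 in nulls, a difference of -0.47 (adjusted p = 0.00743). Of its other 4 probe sets, 3 differed by -0.16, -0.08 and 0.21. The dimmest, singled out after its value was seen, read 4.57 and 4.49 in controls and 6.67 and 6.79 in nulls, and rose by 2.20 (adjusted p = 0.000558).

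Break signalling brings 53BP1, the product of Trp53bp1, and the shieldin subunits to the break, where they shield the ends from resection. Of 16 listed genes 15 were measured, and 0 rose and 1 fell, with a median of -0.12. The gene that fell was Rnf168, a ubiquitin ligase that marks chromatin for 53BP1, which read 9.38 and 9.33 in controls and 8.65 and 8.61 in nulls (difference -0.72, adjusted p = 0.00215), while its dimmer probe set differed by -0.12. Chek2, the kinase gene (-0.57, adjusted p = 0.005), and Paxip1, which encodes a partner of 53BP1 (-0.56, adjusted p = 0.00419), lay just under the fold limit and were named after their values were seen. Chek2 passed it without control replicate 1 (-0.59) or null replicate 2 (-0.63), and Paxip1 without control replicate 2 (-0.59). Both passed it with the arrays centred on their medians. Of the other 3 probe sets of Paxip1, 1 fell (-0.65, adjusted p = 0.00371) and 2 differed by -0.58 and -0.34. By adjusted p alone 6 genes were lower and 2 higher, and at an unadjusted p under 0.05 in limma 7 were lower and 3 higher, beside 21.8% and 12% of all genes by adjusted p and 27.5% and 16.8% by unadjusted p. Among the higher was Mre11a, an end-processing nuclease gene (0.44, adjusted p = 0.01), whose second probe set differed by -0.27.

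Trp53bp1 also gave discordant readings, but among its dimmer probe sets. Its brightest probe set read 11.04 and 11.02 in controls and 11.34 and 11.32 in nulls (difference 0.29, adjusted p = 0.0216, limma). The next brightest differed by 0.30 (adjusted p = 0.0205, limma) and the dimmest by -0.25. Of its other 5 probe sets, 2 that were singled out after their values were seen rose by 1.85 (adjusted p = 0.000633) and 1.62 (adjusted p = 0.000925). One of these read 5.94 and 5.82 against 7.69 and 7.76, the other 6.39 and 6.25 against 7.85 and 8.02. Another, at 7.65 and 7.57 against 7.01 and 7.16, differed by -0.53 (adjusted p = 0.00982). Over the 3 repair lists together, 61 probe sets stood for 31 measured genes, and 3 probe sets rose and 3 fell, where 6.76% of all probe sets rose and 6.96% fell.

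**Figure D4:**
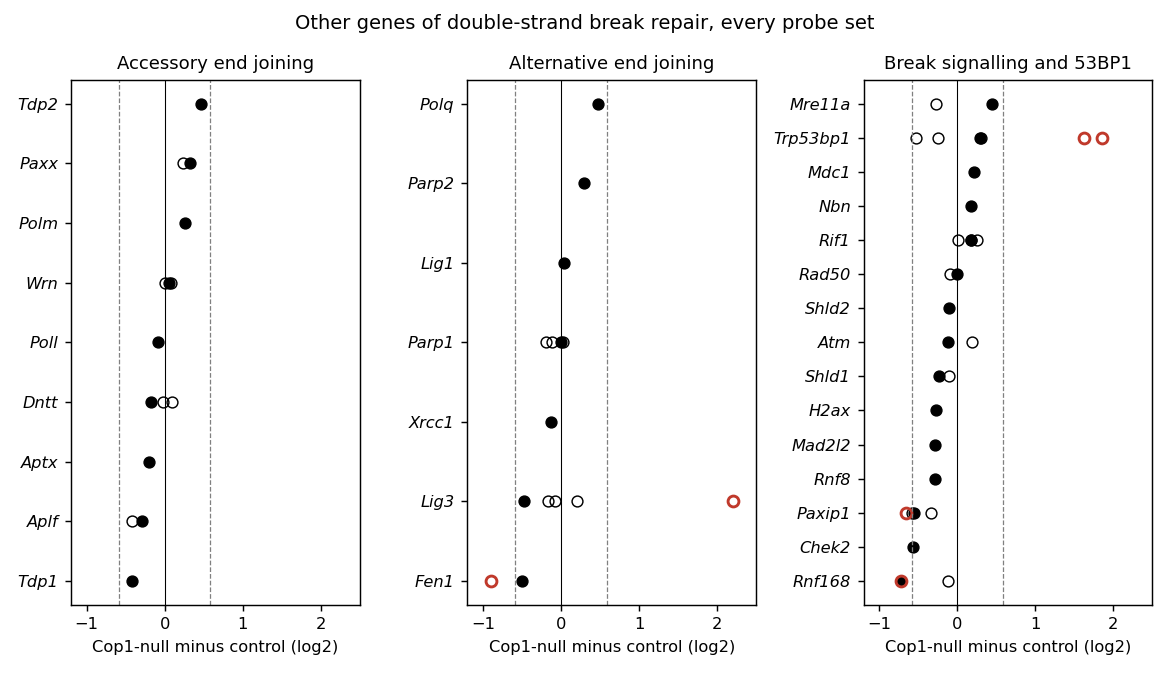
Difference between the Cop1-null and control means (log2) for every probe set of 31 other genes of break repair, in 3 lists. Filled circles are the probe sets with the highest mean, open circles the others, red outlines those past both limits, and dashed lines mark 1.5-fold. The brightest probe sets lie between -0.72 and 0.47, and the 3 at the far right belong to Lig3 and Trp53bp1.

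Markers of proliferation and of tissues were read beside these values. Of 7 measured proliferation genes 0 rose and 0 fell in limma, with a median of -0.15 and a range from -0.41 to 0.05. By an unadjusted p under 0.05 in limma 0 were higher and 3 lower, beside 16.8% and 27.5% of all genes. Pcna, the replication clamp gene, differed by -0.41 (adjusted p = 0.00815) and Cdk1, the mitotic kinase gene, by -0.25 (adjusted p = 0.0349). A dimmer probe set of Top2a, the topoisomerase gene, read 7.66 and 7.76 in controls and 8.54 and 8.53 in nulls and rose by 0.83 (adjusted p = 0.0019), while its brightest differed by 0.05, and this too was singled out after its value was seen. The median reading of this list was 11.89 and 11.86 in controls against 11.84 and 11.79 in nulls. Of the 4 endothelial markers Kdr and Pecam1 rose (0.74 and 0.72), and the list's median reading went from 7.96 and 7.85 to 8.39 and 8.30. Of the 4 markers of yolk sac and gut endoderm Afp and Ttr fell (-1.01 and -1.53), with median readings of 8.28 and 8.43 against 7.60 and 7.53. Of the 4 neural tube markers Nes fell (-0.64), but its other 2 probe sets differed by -0.15 and -0.16. The other 3 markers differed by -0.25 to -0.13. Of the 4 somite markers Tcf15 fell (-0.64), while Meox1 differed by -0.52, Pax3 by 0.01 and Tbx6 by 0.04. The other 2 probe sets of Pax3 differed by 0.38 and 0.42. In limma 0 of 4 heart and 0 of 3 erythroid markers passed the limits. A dimmer probe set of the heart gene Tnnt2 rose by 0.76 (adjusted p = 0.0172, limma), singled out after its value was seen. By an unadjusted p under 0.05 in limma, 2 of the heart markers were higher and 0 of the erythroid markers differed. Of all genes, 16.8% were higher and 27.5% lower by that limit. The part of these shifts in the Lig4 reading was not tested.

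The 5 genes whose profiles came nearest to that of Lig4 were found among 18192 others. The measure was the Euclidean distance over the 4 arrays between profiles centred on the control mean, and 2 clone or prediction names were passed over. The nearest was the homeobox gene Homez, at a distance of 0.23 log2 units, which read 6.57 and 6.74 in controls and 4.41 and 4.23 in nulls. It was followed by Tlcd4 (0.33), the phosphoinositide 3-kinase subunit gene Pik3r3 (0.35), the zinc finger gene Zfp84 (0.41) and Dido1 (0.54). Their differences were -2.34, -1.99, -2.09, -1.93 and -2.56 in that order. Homez and Pik3r3, like Lig4, had 1 probe set. The other 3 probe sets of Tlcd4 differed by -0.36 to 0.14 and the other 2 of Zfp84 by -0.19 and -0.02, so the steep differences of both were not seen in their further probe sets. Those of Tlcd4 read only 2.68 to 4.31, around the 3.37 to 3.65 of the trophoblast and decidua markers. Of these 3 probe sets, 2 were slightly lower (-0.36, adjusted p = 0.0301, and -0.25, adjusted p = 0.0476, limma) and 1 differed by 0.14. Whether their dimness limits the fold was not tested. Of the other 4 probe sets of Dido1, 2 fell as well (-0.89 and -0.65) and 2 differed by 0.15 and 0.47. With 4 arrays of 2 pools, any gene of like difference has a like profile.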

How the data were processed

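The authors deposited 1 table of log2 expression values, and the submitters' processing notes name RMA and affy. RMA equalises the distribution of intensities between arrays, so the amount of RNA per embryo cannot be read from the values. Per the labels' protocols, cRNA was made from 5 µg of total RNA. The table held 45101 probe sets, of which 64 Affymetrix controls were left out. Genes came from the platform annotation, which names 1 gene for 34945 probe sets, several for 932, and does not list 9160. All probe sets were fitted in limma 3.58.1 (R 4.3.3; lmFit and eBayes, genotype as the only term), with Benjamini-Hochberg adjustment over 45037. The fit was also run on simulated data with independent arrays. As the arrays of a genotype here share 1 pool, that run says nothing of the spread between embryos. A call needed an adjusted p under 0.05 and a fold of at least 1.5. Gene positions and promoter sequences are from RefSeq (GRCm38.p6).

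Members and lists were chosen with earlier results of these data known. Named by rule were all members, Cop1, up to 4 called genes per repair or proliferation list or else the 2 with the largest difference, genes next to Lig4, and the 5 nearest profiles. Further genes, among them Paxx, Polm, Poll, Lig1, Lig3 and Mre11a, were named outside this rule. Listed genes without a probe set of their own in that annotation were not analysed here. All p-values measure only the spread between portions of 1 pool, and the number of arrays limits the precision. Alternatives were other scalings, a filter on dim probe sets, other eBayes settings, a replicate block, other fold limits, the median over probe sets and each array left out.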

Additional observations from a re-analysis of the deposited data

How the results depend on the processing

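Lig4 kept its direction under every alternative run, but with groups 1.98 log2 units apart, leaving out 1 array could not reverse it. As the gene was chosen for its difference, these values are a description. Lig4 differed by -2.40 to -2.02 with 1 array left out and by -2.45 with the arrays centred on 24 poly-A control probe sets. Under that centring the median over all genes was -0.26, and -0.02 without it. It gave 352 rising and 3215 falling genes (9.87% rises, against 652, 1467 and 30.8%), and 1922 and 6667 probe sets (against 3044 and 3134). No other member reached 1.5-fold under any alternative, but with that centring Xrcc4 differed by 0.05, Xrcc5 by -0.48, Xrcc6 by -0.44 and Nhej1 by -0.26, and the sign for Nhej1 varied with the array left out (-0.11 to 0.06). With that centring Tdp1 fell, so that 1 accessory gene was called, as did Fen1 and Lig3 (2 alternative end-joining genes), 3 signalling genes and Pcna (1 proliferation gene), and Irs2 missed the fold limit (0.46), which left 0 rises around Lig4. The signalling list also had 3 falls with median centring, 1 to 2 with 1 array left out and 0 at a fold of at least 2. Around the other members 3 genes fell with either centring, and 1 to 2 with 1 array left out. Adjusted p alone gave 2192 rising and 3973 falling genes, and 6801 and 7933 probe sets. A fold of at least 2 gave 246 and 315 genes, and 1393 and 749 probe sets. By adjusted p alone the accessory list had 1 higher and 1 lower gene, the alternative list 2 and 2, the signalling list 2 and 6, and the proliferation list 0 and 3. Median centring gave 543 rises and 1835 falls (22.8% rises). Deviations of same-numbered portions correlated at 0.06, but the 2 pairs mirror each other and give 1 value. This cannot tell whether the portion number marks a shared source. The replicate block gave 647 rising and 1455 falling genes and left the named calls as they were.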
